A study of Homo sapiens with 2 samples.

Results

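Metallothioneins and the genes of the cellular zinc response were examined in NCI-H460, a cell line of human large cell lung carcinoma whose source label is lung and pleural effusion. The 8 genes were chosen by name from the 58735 rows of the count table. They are the metallothionein genes MT1E, MT1F, MT1G, MT1M, MT1X and MT2A, the transcription factor gene MTF1 and the zinc exporter gene SLC30A1. The control library, labelled siControl and WT, came from cells that received no siRNA against CYP4F11, and the labels name no control sequence. The other library, labelled siCYP4F11, received an siRNA that targets CYP4F11, a cytochrome P450 of fatty acid omega-hydroxylation. Both were transfected for 24 h with a lipid reagent, belong to the same labelled batch and were made from poly-A RNA by a strand-specific method. Each group had 1 library of 1 cell line, so no difference below has a replicate check. The series' title concerns proliferation and migration after CYP4F11 depletion, and its design text names NCI-H469 where the sample labels name NCI-H460.

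Metallothioneins are very small cytosolic proteins that bind zinc, copper and cadmium through clustered cysteines. Zinc that enters the cytosol is sensed by MTF1, a zinc finger factor that binds metal response elements in the promoters of metallothionein genes and of SLC30A1. Metallothioneins then buffer the metal, and the SLC30A1 protein carries it out across the plasma membrane. Metallothionein genes also respond to glucocorticoids and oxidants. Gene symbols that begin with MT and a hyphen belong to the mitochondrial genome and are unrelated.

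The coding sequences of the 3 chosen metallothioneins with the most reads show what the genes share and how little separates them. They were read from GENCODE 29 and include the stop codon, and in-frame cysteine codons (TGC or TGT) are in capitals.
MT2A: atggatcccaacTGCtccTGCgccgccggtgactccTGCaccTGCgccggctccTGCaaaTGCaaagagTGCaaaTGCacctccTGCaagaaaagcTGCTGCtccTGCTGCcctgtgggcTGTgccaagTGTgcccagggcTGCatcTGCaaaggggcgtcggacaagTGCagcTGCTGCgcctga
MT1X: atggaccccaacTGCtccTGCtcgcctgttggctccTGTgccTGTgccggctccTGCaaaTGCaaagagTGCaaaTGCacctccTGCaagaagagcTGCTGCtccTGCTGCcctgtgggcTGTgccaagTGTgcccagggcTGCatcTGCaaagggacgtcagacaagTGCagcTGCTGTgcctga
MT1F: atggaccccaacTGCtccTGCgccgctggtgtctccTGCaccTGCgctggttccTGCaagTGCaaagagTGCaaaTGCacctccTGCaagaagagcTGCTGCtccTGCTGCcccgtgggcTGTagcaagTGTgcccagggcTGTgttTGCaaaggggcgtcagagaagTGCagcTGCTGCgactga
Each has 186 bases and 61 codons before the stop, of which 20 are cysteine codons. MT2A and MT1X were identical at 172 of 186 positions (92.5%), with a longest identical run of 63 bases. MT1F and MT2A were identical at 170 positions (91.4%), with a longest run of 32 bases. MT1A is not among the 8 genes but belongs to the same family and is described with them.

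How far reads of these paralogs can be confused was measured as the share of each gene's 50-base words found in transcripts of any other gene. It was 3.02% for MT2A, 5.76% for MT1A, 1.22% for MT1F, 7.10% for MT1E and 9.87% for MT1M. It was higher for MT1G (16.5%) and MT1X (18.3%), so their values are less certain. The main partner of MT1X was AC026461.1, a transcript that overlaps it on the same strand and has 0 counts in both libraries. SLC30A1 shared no words and MTF1 0.64%.

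The libraries held 16207785 counts (siControl) and 13002179 counts (siCYP4F11). CYP4F11 itself was lower in the siCYP4F11 library, with 972 counts against 3180 and a log2 ratio of -1.40 (95% counting interval -1.51 to -1.30). Levels are given as CPM, that is counts adjusted for library size. Genes whose CPM averaged 1 or more over both libraries are called measured. Epithelial markers fixed for the check gave KRT8, KRT18 and KRT19 between 436 and 1746 CPM, whereas EPCAM and CDH1 had at most 8 and 1 reads. The log2 ratios of KRT8 and KRT19 were -0.30 and -0.29. Endothelial markers were at 0 in both libraries. Squamous and lung adenocarcinoma markers summed to less than 1 CPM in each library. Of the neuroendocrine markers, CHGA had 82.3 and 81.7 CPM and SYP 4.40 and 3.14 CPM, siControl first, and INSM1 had 1 and 0 reads. Fibroblast markers summed to 16.9 CPM in siControl and 24.8 CPM in siCYP4F11, with LUM at 0.59 (0.32 to 0.86) on the log2 scale. DCN was at 0.77 (0.008 to 1.56) from 26 and 36 counts, siControl first. After a correction for GC content, the DCN interval included 0 (-0.12 to 1.44), while LUM was at 0.44 (0.17 to 0.71). COL1A1 was at 0.26 (-0.47 to 0.998) from 34 and 33 counts. COL1A2 went the other way, with 4 and 0 counts, and was not measured. Of the leukocyte markers, PTPRC was at 0 and CD68 had 1 and 0 reads. CD14 passed the size rule, which is defined below, at 1.01 with 20 and 33 counts, and so did 1.96% of all measured genes. CD14 averaged 1.88 CPM, and the central 95% of genes averaging 1 to 3 CPM ran from -1.39 to 1.17, so CD14 lay inside that range. The part of these markers in the results below was not tested.

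Of the 8 genes, 3 were measured, namely MT2A, MTF1 and SLC30A1. MT1F, MT1G and MT1X had reads but lay below the filter, and MT1E and MT1M had 0 reads in both libraries. The size rule called a gene higher or lower where the libraries differed by 1 or more on the log2 scale and the counting interval left out 0. None of the 3 measured genes passed this rule, which 1.96% of all 13942 measured genes did. The counting interval alone excluded 0 for 1 of the 3, MT2A, where it did so for 37.8% of all measured genes. Their median log2 ratio was 0.12, beside -0.005 for all measured genes, whose middle 50% ran from -0.18 to 0.17. The members' median turned to -0.006 with a correction for GC content and to -0.12 over the 5 members with more than 3 counts in a library when no filter on level was used.

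**Figure D1:**
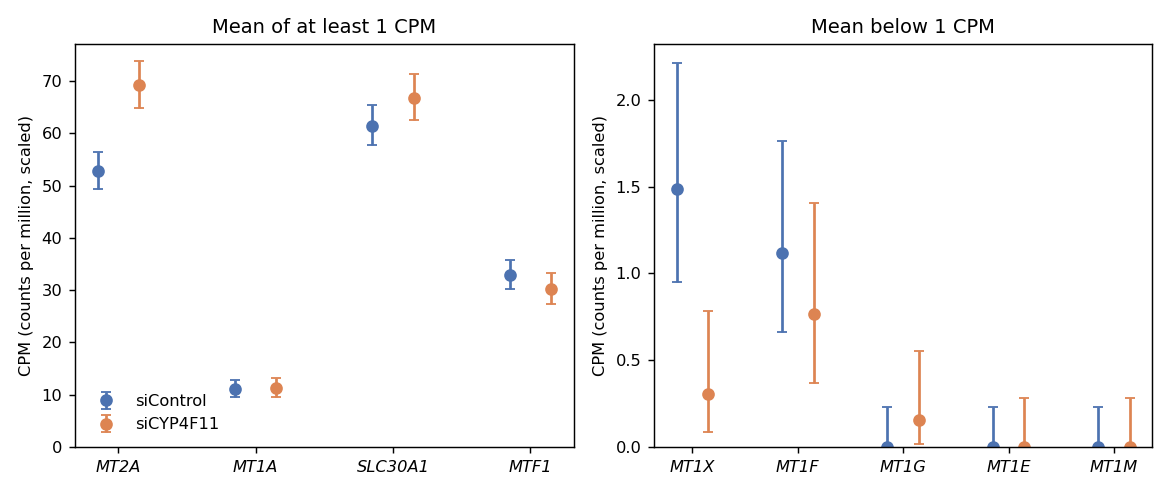
CPM (y axis) of each gene in the siControl library (blue) and the siCYP4F11 library (orange), with exact 95% Poisson intervals that cover counting error only; the left panel holds the 3 measured genes and MT1A, the right panel the members with a mean CPM below 1. MT2A is the measured gene whose intervals do not overlap, at 52.8 and 69.2 CPM, and MT1X differs the other way, at 1.49 and 0.306 CPM.

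MT2A, a metallothionein gene active in most human tissues, was the most abundant transcript of the family. It had 852 counts in siControl and 904 in siCYP4F11, although the siCYP4F11 library was the smaller. This was 52.8 CPM (49.3 to 56.4) against 69.2 CPM (64.8 to 73.9), and these counting intervals do not overlap. The siCYP4F11 level was 131% of the control (119% to 144%), a log2 ratio of 0.39 (0.26 to 0.53). The gene (ENSG00000125148) lies on the plus strand of chromosome 16 from 56608199 to 56609497.

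The size of the MT2A difference was set beside the spread of other genes between the same 2 libraries. Of all measured genes, 17.9% had a log2 ratio at least as large in size. Of the 2267 genes averaging 50 to 100 CPM, the level of MT2A, 4.59% did. The log2 ratios of those genes had an SD of 0.20, where counting alone gives 0.065, and their central 95% ran from -0.39 to 0.38. MT2A therefore sat just past the upper end of this range. In the same band, 27.1% of genes had a counting interval wholly above 0.

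MT1X, another cadmium- and zinc-inducible metallothionein gene, was lower in the siCYP4F11 library but was rarely counted. It had 24 counts in siControl and 4 in siCYP4F11, or 1.49 CPM (0.953 to 2.21) against 0.306 CPM (0.0835 to 0.785). The log2 ratio was -2.14 (-4.27 to -0.74). The mean CPM of 0.897 put it below the filter, so it is not among the genes counted by the size rule, though its values meet that rule. Of the 1643 genes averaging 0.5 to 1 CPM, 12.4% met the rule, and 7.18% did so on the lower side. The gene (ENSG00000187193) lies at the far end of the same cluster, from 56682424 to 56684196 on the plus strand.

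Taking the family members against each other removes the library size from the comparison. Ratios of 8 pairs of genes were computed. For every 1000 counts of MT2A there were 28.2 of MT1X in siControl and 4.42 in siCYP4F11, a log2 ratio of ratios of -2.67 (exact counting interval -4.66 to -1.12). The MT1A to MT2A ratio went from 209 to 163 per 1000, at -0.36 (-0.72 to -0.009). MTF1 to MT2A was at -0.52 (-0.75 to -0.28) and SLC30A1 to MT2A at -0.27 (-0.46 to -0.08). MT2A thus took a larger part of each of these pairs in the siCYP4F11 library, with intervals that leave out 0 but cover counting error only. The pairs share the MT2A counts, so they are not separate results. The spread of other gene pairs was not computed. Log2 ratios of single genes averaging 50 to 100 CPM, the level of MT2A and SLC30A1, had an SD of 0.20, where counting alone gives 0.065. The SD was 0.22 at 25 to 50 CPM, the level of MTF1, and 0.28 at 10 to 25 CPM, the level of MT1A. At 0.5 to 1 CPM, the level of MT1X and MT1F, it was 0.95, where counting alone gives 0.67. MT1F to MT2A was at -0.93 (-2.22 to 0.27), an interval that includes 0. MTF1 to SLC30A1 was at -0.24 (-0.48 to -0.01), MT1X to MT1A at -2.31 (-4.32 to -0.72) and MT1X to MT1F at -1.74 (-4.06 to 0.36). The pair ratios were not corrected for GC content, which differs between MTF1 (46.7%) and SLC30A1 (38.0%). As single genes, MTF1 was at -0.14 and SLC30A1 at -0.01 after that correction, so the MTF1 to SLC30A1 interval is not secure.

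The remaining metallothionein genes had few or no reads. MT1F had 18 counts in siControl and 10 in siCYP4F11, or 1.12 and 0.766 CPM, with overlapping intervals and a log2 ratio of -0.51 (-1.82 to 0.65). MT1G had 0 and 2 counts, under the limit of 3 counts in both libraries, so no ratio is given. MT1E and MT1M had 0 reads in both. The exact Poisson upper limits for 0 counts are 0.229 CPM in siControl and 0.283 CPM in siCYP4F11, and 3 counts of the unscaled totals correspond to 0.185 and 0.231 CPM. Their difference was not detectable at this depth.

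MT1A was counted 178 and 147 times, at 11.03 and 11.26 CPM, and a log2 ratio of 0.03 (-0.29 to 0.35). It was the second most counted member of the family. Of the 21 metallothionein genes and pseudogenes in the table, 10 had a read. MT3, the form known from brain, had 2 and 1 counts, and the copies MT1CP, MT1DP, MT1P1 and MT1XP1 had at most 3 in either library. MT1B, MT1H, MT1HL1 and MT4 had none.

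Summed over the 6 metallothioneins chosen, there were 894 counts in siControl and 920 in siCYP4F11, at 55.4 and 70.5 CPM. The log2 ratio of the sum was 0.35 (0.21 to 0.48), and it was 0.29 (0.17 to 0.42) over all 21 copies. The direction rested on MT2A. Without it, the other 5 genes had 42 and 16 counts, siControl first, a log2 ratio of -1.09 (-2.02 to -0.22). The other 20 copies of the family had 227 and 165 counts, at -0.15 (-0.45 to 0.14).

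MT2A supplied 79.0% of the family's counts in siControl (exact 95% interval 76.4% to 81.4%) and 84.6% in siCYP4F11 (82.3% to 86.7%). MT1A supplied 16.5% (14.3% to 18.8%) and 13.8% (11.7% to 15.96%). MT1X supplied 2.22% (1.43% to 3.29%) and 0.374% (0.102% to 0.955%). The 2 largest contributors were the same in both libraries.

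**Figure D2:**
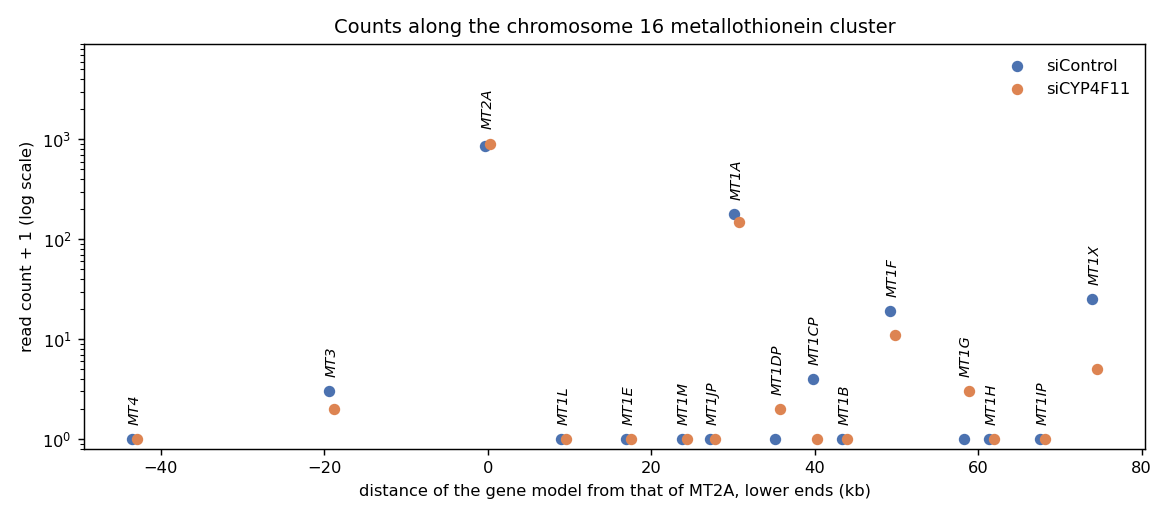
Read count plus 1 (y axis, log scale) of the 16 metallothionein genes and pseudogenes on chromosome 16, by the distance of each gene model from that of MT2A in kb (x axis), in siControl (blue) and siCYP4F11 (orange). MT2A and MT1A stand above 100 counts, and MT1F and MT1X at the right have 4 to 24, while the genes between are at or near 0.

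The metallothionein genes of chromosome 16 form a cluster, and copies with and without reads are interspersed along it. The 16 copies span 119148 bases from MT4 to MT1X, and 8 of them had a read. MT1E and MT1M, at 0 reads, lie between MT2A and MT1A, the 2 copies with the most reads. Of the protein-coding neighbours starting within 200 kb of the chosen genes, NUDT21 was at 0.16 (0.08 to 0.23) and BBS2 at 0.17 (0.02 to 0.32) on the log2 scale. NUP93 was at -0.22 (-0.31 to -0.13). OGFOD1 was at 0.03 (-0.08 to 0.14), and SLC12A3 had 0 reads. These neighbours thus lay on both sides of 0, and MT2A had a larger ratio in size than any of them.

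The promoters of the zinc-responsive genes are shown because they carry the element that MTF1 binds. RefSeq sequences (GRCh38.p14) were found for 4 of the 8 genes and for 5 of the 21 metallothionein copies. The 250 bases upstream of the RefSeq start are printed 5′ to 3′ on the gene's strand, with matches to the metal response element in capitals. This start can differ from that of the gene model whose coordinates are given in the text. The MT2A window lies inside its gene model, and the SLC30A1 window ends short of its own. The motif was searched as TGCACNC or TGCGCNC on both strands, so a match on the other strand reads GNGTGCA or GNGCGCA.
MT2A (chr16:56608334-56608583, plus strand): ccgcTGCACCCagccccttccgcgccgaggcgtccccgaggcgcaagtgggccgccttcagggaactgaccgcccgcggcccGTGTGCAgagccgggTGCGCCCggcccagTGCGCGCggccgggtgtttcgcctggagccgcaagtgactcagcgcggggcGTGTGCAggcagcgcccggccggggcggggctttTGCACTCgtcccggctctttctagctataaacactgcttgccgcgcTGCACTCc
MT1X (chr16:56682220-56682469, plus strand): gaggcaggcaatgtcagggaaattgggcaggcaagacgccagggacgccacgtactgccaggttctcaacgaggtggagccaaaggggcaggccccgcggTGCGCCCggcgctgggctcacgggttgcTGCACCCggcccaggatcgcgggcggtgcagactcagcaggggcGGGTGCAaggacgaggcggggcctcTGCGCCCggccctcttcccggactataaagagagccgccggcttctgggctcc
MT1H (chr16:56669564-56669813, plus strand): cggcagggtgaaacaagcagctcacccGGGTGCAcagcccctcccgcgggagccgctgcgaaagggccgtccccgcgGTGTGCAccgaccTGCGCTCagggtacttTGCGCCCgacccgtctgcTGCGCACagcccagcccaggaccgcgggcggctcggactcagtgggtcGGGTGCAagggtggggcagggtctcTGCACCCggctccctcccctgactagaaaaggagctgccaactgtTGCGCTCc
SLC30A1 (chr1:211579162-211579411, minus strand): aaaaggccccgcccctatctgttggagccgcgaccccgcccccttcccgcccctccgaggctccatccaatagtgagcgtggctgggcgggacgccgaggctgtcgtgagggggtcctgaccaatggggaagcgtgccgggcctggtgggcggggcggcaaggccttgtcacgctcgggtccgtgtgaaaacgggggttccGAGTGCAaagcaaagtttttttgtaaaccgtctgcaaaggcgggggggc
MT2A held 7 matches, 5 on the printed strand and 2 on the other, and MT1X held 4. MT1H, a copy with 0 reads in both libraries, held 8. SLC30A1 held 1 match, which ends 43 bases before the start, and MTF1 held 0.

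Promoters with this many matches were uncommon. Of 35116 RefSeq windows of the same length, 24.8% held at least 1 match, 0.37% at least 4, and 0.0313% at least 7. The antioxidant response element, searched as TGACNNNGC on both strands, matched at 1 place each in MT2A, MT1X and SLC30A1 and in 10.9% of all windows. In MT2A that match reads TGACTCAGC, from 104 to 96 bases before the start, and overlaps no metal response element match. The palindromic glucocorticoid response element, with its variable positions open, matched in none of these windows and in 0.327% of all. Bases further than 250 from the start were not searched, so an element there would be missed. A match is a description of letters and not a bound site. Of the windows found, that of MT1H had the most metal response element matches and its gene no reads.

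MTF1, the zinc sensor of this response, was present at a moderate level in both libraries. It had 531 counts in siControl and 394 in siCYP4F11, or 32.9 CPM (30.2 to 35.8) against 30.2 CPM (27.3 to 33.3), and these intervals overlap. The log2 ratio was -0.12 (-0.32 to 0.07), and 62.7% of measured genes had one at least as large in size. The gene (ENSG00000188786) is on chromosome 1, minus strand, from 37809567 to 37859620.

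SLC30A1, the exporter that MTF1 induces, had more counts than MT2A in siControl and slightly fewer in siCYP4F11. It had 993 counts in siControl and 873 in siCYP4F11, or 61.5 CPM (57.7 to 65.5) against 66.9 CPM (62.5 to 71.5), again with overlapping intervals. The log2 ratio was 0.12 (-0.01 to 0.25), and 63.5% of measured genes had one at least as large in size. The intervals of MTF1 and SLC30A1 thus both include 0. The gene (ENSG00000170385) is on chromosome 1, minus strand, from 211571568 to 211578742.

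Per length of gene model, the order of levels was the same in both libraries for the measured genes. MT2A stood at 40.6 and 53.3 CPM per kb, siControl first, and MT1A at 27.8 and 28.4. SLC30A1 followed at 11.2 and 12.2 and MTF1 at 4.10 and 3.76. MT1X (0.839 and 0.173) and MT1F (0.59 and 0.406) changed places between the libraries, and their counting intervals overlap in each. The gene model of MT2A has 1299 bases, more than its longest annotated transcript of 903, and that of MT1X has 1773 against a shortest coding transcript of 450. The values per length of these genes are therefore low estimates.

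**Figure D3:**
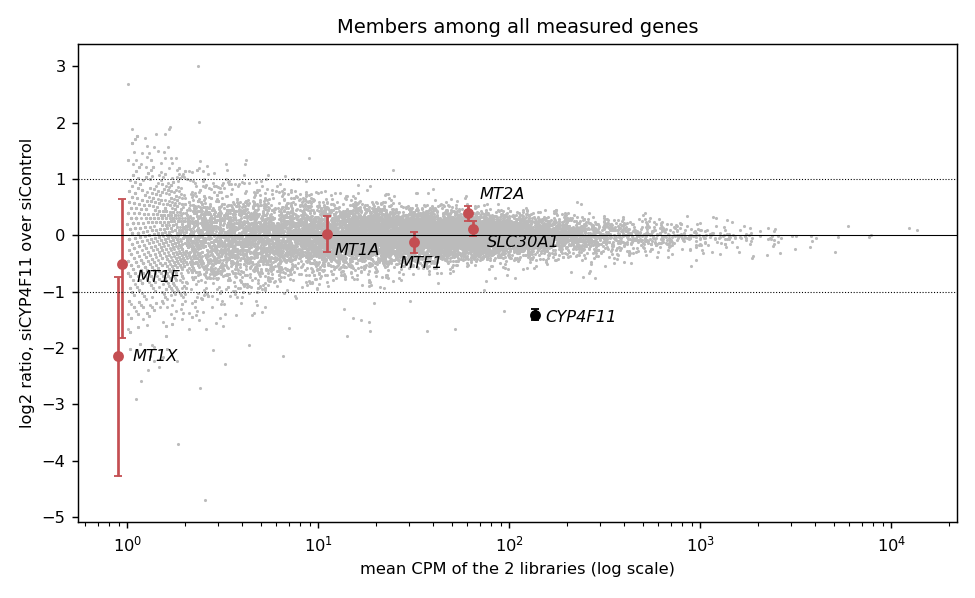
Log2 ratio of siCYP4F11 over siControl (y axis) against mean CPM (x axis, log scale) for the 13942 measured genes (grey), with the members, MT1A (red) and the siRNA target CYP4F11 (black) and their 95% counting intervals; dotted lines mark log2 ratios of -1 and 1. MT2A, at 0.39, lies at the upper edge of the genes at its level, MTF1, SLC30A1 and MT1A lie inside, and MT1X and MT1F fall at the left where ratios scatter most.

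Log2 ratios in these libraries were related to the GC content of transcripts, which bears on MT2A and SLC30A1 in opposite ways. Genes averaging 10 CPM or more were ordered by GC content in 10 groups of 959. The group with the lowest GC content had a median log2 ratio of 0.15 and the group with the highest -0.13. The longest transcript of MT2A has 53.9% GC, in a group whose median was -0.07, and MT2A was at 0.46 (0.32 to 0.59) after correction for GC content. The SLC30A1 transcript has 38.0% GC, in the group with the median of 0.15. SLC30A1 was at -0.01 (-0.14 to 0.13) after correction, so its direction flips. MTF1 was at -0.14 and MT1X at -2.07 after correction.

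Other zinc transporters were compared through lists chosen by family. Most SLC30 proteins move zinc out of the cytosol into vesicles or out of the cell. Of 11 exporter genes, 7 were measured, none passed the size rule, and their median log2 ratio was 0.30. The counting interval lay above 0 for 3 of the 7, where 18.6% of all measured genes had such an interval, and below 0 for 0. That share depends on level, and it was 27.1% among genes averaging 50 to 100 CPM. SLC30A5, which loads zinc into the secretory pathway, was counted 821 and 837 times, at 0.33 (0.19 to 0.47) on the log2 scale. SLC30A3, the zinc loader of synaptic vesicles, had the largest ratio, 0.37 (-0.54 to 1.28), from 22 and 23 counts. SLC30A9 was at 0.32 (0.19 to 0.45) and SLC30A7, also a transporter of the secretory pathway, at 0.30 (0.10 to 0.49). Transcripts of SLC30A5, SLC30A7 and SLC30A9 have 36.2% to 40.0% GC, and that of SLC30A3 has 56.4%. After correction for GC content, SLC30A5 was at 0.23, SLC30A9 at 0.21 and SLC30A7 at 0.15 (-0.05 to 0.34), whereas SLC30A3 was at 0.45 (-0.46 to 1.36). Then 2 of the 7 intervals lay above 0 and 1 below, and the median was 0.15.

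**Figure D4:**
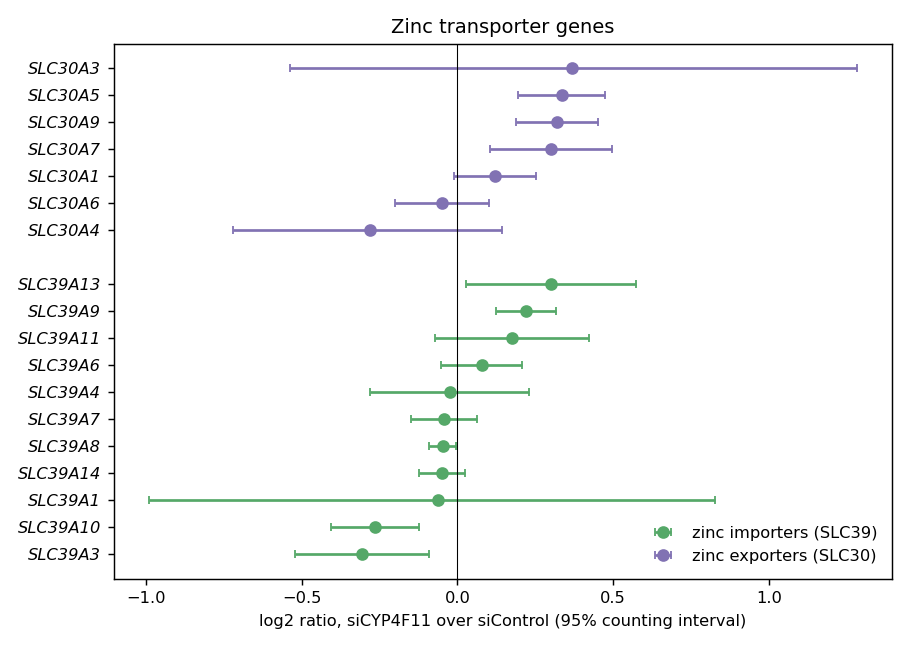
Log2 ratio of siCYP4F11 over siControl (x axis) with 95% counting intervals for the 7 measured SLC30 exporter genes (purple) and the 11 measured SLC39 importer genes (green). SLC30A5, SLC30A9 and SLC30A7 have intervals above 0, SLC30A1 has one that includes 0, and the importers lie on both sides of 0.

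SLC39 proteins bring zinc into the cytosol. Of 14 importer genes, 11 were measured, none passed the size rule, and their median log2 ratio was -0.04. Intervals lay above 0 for 2 and below 0 for 3, beside 18.6% and 19.2% of all measured genes. SLC39A8, which also carries manganese and cadmium, was the most counted importer, with 9230 and 7221 reads, at -0.05 (-0.09 to -0.003) on the log2 scale. SLC39A3 was at -0.31 (-0.52 to -0.09) and SLC39A13 at 0.30 (0.03 to 0.57). After correction for GC content, SLC39A3 was at -0.21 (-0.43 to 0.001), SLC39A13 at 0.43 (0.15 to 0.70), and the importer median at 0.02. SLC39A10, a gene that MTF1 represses, was at -0.26 (-0.41 to -0.12), and at -0.40 after correction for GC content. SLC39A1 had only 26 and 20 counts, and 55.2% of its 50-base words occur in other genes.

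Genes known as MTF1 targets outside the metallothioneins lay on both sides of 0. The list mixes SLC39A10, which MTF1 represses, with genes such as SLC30A1 that it induces. Its median and counts therefore do not measure MTF1 activity. Of the 11 genes listed, SLC30A1 and SLC39A10 included, 8 were measured and none passed the size rule. The median log2 ratio was -0.03, with 3 above 0 and 5 below. GCLC, a glutathione synthesis gene, was at 0.44 (0.33 to 0.55) from 1211 and 1328 counts, close to MT2A. SLC40A1, the iron exporter ferroportin, was at -0.39 (-0.81 to 0.02), and CSRP1 at -0.38 (-0.42 to -0.34).

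The list of 18 heavy metal and proteotoxic stress genes was measured in full and gave a median log2 ratio of 0.08. None passed the size rule, 6 (33.3%) had intervals above 0 and 4 (22.2%) below, beside 18.6% and 19.2% of all measured genes. These overall shares are not matched for level. Of genes averaging 50 to 100 CPM, 27.1% had an interval above 0, and TXNRD1 and NQO1 of this list averaged 2475 and 1820 CPM. HMOX1, the heme oxygenase induced by cadmium and oxidants, was at 0.32 (0.03 to 0.61) with 196 and 198 counts. HSPB1, a small heat shock protein, had 1088 and 686 counts and was at -0.36 (-0.50 to -0.22). After correction for GC content, HMOX1 was at 0.41 (0.12 to 0.71) and HSPB1 at -0.23 (-0.37 to -0.09). The heat shock gene HSPA1A was at 0.18 (-0.20 to 0.57) and has 71.3% of its 50-base words in common with HSPA1B and other genes.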

How the data were processed

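RNA from 2 libraries of NCI-H460 cells was counted per gene, with 1 library per group. The authors deposited raw read counts for 58735 genes and the length of each gene model, with 0 further sample columns. The submitters' processing notes list GRCh38 and, as tools, edgeR 4.0.16, featureCounts 2.0.6, HISAT2 2.2.1 and fastp. Their roles, the strand setting and the handling of reads that match several genes are not given in the sources used here. All identifiers and symbols matched GENCODE release 29, and coordinates are those of the table on GRCh38.

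Library sizes were scaled by TMM over the whole table (edgeR 4.0.16, R 4.3.3). Log2 ratios are siCYP4F11 over siControl with 0.5 added to the counts. Their 95% intervals derive from exact Clopper-Pearson bounds on how the reads of a gene divide between the libraries. Intervals of a CPM are exact Poisson intervals. All intervals cover counting error only, and PCR reads that carry no molecular identifiers are not independent. No p-value was computed, since edgeR's quasi-likelihood test needs replicates. The size rule was tested on simulated data. The simulated counts held counting error only, which is less than the spread between these libraries, so that test does not cover this spread. Each value compares these 2 libraries, not the conditions in general. The text names all members, the metallothionein copies with a read, CYP4F11, and protein-coding genes starting within 200 kb of the member cluster. Of each other list it names up to 4 genes past the size rule, or else the 2 with the largest ratios. Genes and a sequence that these rules also name are not reported here. Other genes named were chosen after their values were seen. The members and lists were chosen with earlier results of these data known. Alternatives were total counts, DESeq2 1.42.0 size factors, upper-quartile sizes, 2 added to each count, other filters and thresholds, and a lowess correction on transcript GC content with a span of 0.3. Python 3.11.15 was used with scipy 1.17.1, numpy 2.4.6, statsmodels 0.14.6, pandas 2.3.3 and matplotlib 3.10.9.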

Additional observations from a re-analysis of the deposited data

How the results depend on the processing

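With total counts, DESeq2 size factors, upper-quartile sizes or 2 added to each count, the log2 ratios of MT2A, MT1X, MT1F, MTF1 and SLC30A1 kept their sign and stayed inside their counting intervals. They also stayed inside them with the GC correction, where SLC30A1 crossed 0. MT2A ranged from 0.39 to 0.46. The summed metallothioneins ranged from 0.29 to 0.41, except that leaving out MT2A reversed them to -1.09, since it holds most of the counts. The median of the measured members was -0.006 with the GC correction and -0.12 over 5 members without a filter. The size rule called 98 genes higher and 175 lower. There were 345 and 476 without a filter, 5 and 19 at a mean CPM of at least 5, and 284 and 479 at 1.5-fold, because more or fewer genes were tested or the rule was laxer. No paired analysis was possible because each group had 1 library, and no library could be left out. Depth limits MT1X, MT1F, MT1G, MT1E and MT1M most. The GC correction of the gene lists was chosen after seeing the data.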

Other observations

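Copper, which metallothioneins also bind, has its own transporters and chaperones, and 1 of these passed the size rule. ATP7B, a copper-exporting ATPase, was lower by the size rule with 83 counts in siControl and 31 in siCYP4F11, a log2 ratio of -1.10 (-1.76 to -0.50). It was at -1.05 (-1.71 to -0.45) after correction for GC content. Of the 16 copper handling genes listed, 12 were measured, and ATP7B alone passed the rule, which 1.96% of all measured genes did. The related ATP7A was at 0.14 (-0.06 to 0.34) and the importer SLC31A1 at 0.15 (0.07 to 0.23), both named after their values were seen. The median of the list was -0.03.

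Glucocorticoids also induce MT2A. Of 13 genes listed for glucocorticoid induction, 11 were measured and none passed the size rule. The list includes the receptor gene itself, NR3C1, at 0.14 (0.01 to 0.26), which is counted among those above 0. The median log2 ratio of the measured genes was 0.01, with 7 above 0 and 4 below. Intervals lay above 0 for 3 and below for 2, beside 18.6% and 19.2% of all measured genes. Among genes averaging 50 to 100 CPM, 27.1% had an interval above 0. CEBPD, a transcription factor gene, was at -0.34 (-0.52 to -0.16), and at -0.19 (-0.37 to -0.01) after correction for GC content. With that correction, 2 intervals of the list lay above 0 and 2 below, and its median was 0.02.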
